A study of Mus musculus with 6 samples.

Results

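The AP-1 transcription factors followed here are 10 of the 55385 genes in the deposited table, matched by gene symbol: the FOS family (Fos, Fosb, Fosl1, Fosl2), the JUN family (Jun, Junb, Jund), Atf3, and the small MAF proteins Maff and Mafk. Their messenger RNA was measured by sequencing in 6 liver samples from mice of strain C57BL/6, 6 weeks old, in 3 groups of 2. The labels give separate samples and do not say more of how replicates were obtained. Each sample is called a liver below. Optn-/- mice (replicates 4 and 5) and wild-type mice (replicates 1 and 4) had been given 500 mg/kg acetaminophen into the abdominal cavity, and wild-type mice (replicates 3 and 6) had received 200 µL of phosphate-buffered saline. All livers were taken after 6 h, all knockout livers had acetaminophen, and the labels say nothing more about the Optn allele or about how the mice were housed. Optn encodes optineurin, a receptor that brings cargo such as damaged mitochondria to autophagosomes.

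AP-1 is a family of dimers of basic leucine zipper (bZIP) proteins. FOS proteins cannot pair with each other and bind DNA as partners of JUN proteins, whereas JUN proteins also pair among themselves and with members of the ATF family. Several AP-1 genes are immediate early genes: stress-activated and growth factor-activated MAP kinases switch them on within minutes without new protein synthesis, and their transcripts are short-lived. High-dose acetaminophen is oxidised in hepatocytes to a reactive product that depletes glutathione and activates c-Jun N-terminal kinase (JNK), which phosphorylates JUN. ATF3 is a stress-induced member of the ATF family, and the small MAF proteins have a bZIP domain but no activation domain of their own, so their effect depends on partners such as NRF2 or BACH1.

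Total counts were between 59143418 and 77292216 per library. Albumin took 6.69% to 9.94% of the counts, in keeping with the tissue label, although one protocol text speaks of adipose RNA. Optn, the deleted gene, had 0.32 and 0.46 FPKM in Optn-/- livers, against 9.17 and 9.19 FPKM in wild-type acetaminophen livers and 20.95 and 18.73 FPKM in saline livers, so no library went against its genotype label. FPKM is the count scaled to gene length and library size, as deposited. Traces of other tissues set libraries apart. The 10 skeletal muscle markers summed to 56.7 and 65.9 CPM (counts scaled to library size alone) in wild-type acetaminophen replicates 1 and 4 and 87.5 in saline replicate 3, and to at most 1.01 in the other libraries. The goblet cell genes Muc2, Clca1 and Zg16, picked out after their values were seen, summed to 10.3, 17.7 and 10.5 CPM in Optn-/- replicates 4 and 5 and saline replicate 6 and to at most 0.0676 elsewhere, while the whole list of 10 intestinal markers ran from 28.7 to 68.3 CPM without separating the libraries. Neuron markers summed to 139.4 CPM in wild-type acetaminophen replicate 4 and to 6.65 to 14.5 in the others. By the muscle and goblet cell genes, the wild-type acetaminophen libraries went with saline replicate 3 and the Optn-/- libraries with saline replicate 6, so each treated group lay within a single set.

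The promoters of Fos, Jun, Atf3 and Maff are shown as examples of members that rose from low levels in saline livers. Other members that did so, such as Junb and Fosb, are given by their motif matches only. RefSeq windows (GRCm38.p6) of 300 bases, 250 before the start of transcription and 50 from it onward, were found for 9 of the 10 members, and Maff has 3. Capitals mark matches to any of the motifs named below, on either strand.
Fos, chr12:85473640-85473939, plus strand: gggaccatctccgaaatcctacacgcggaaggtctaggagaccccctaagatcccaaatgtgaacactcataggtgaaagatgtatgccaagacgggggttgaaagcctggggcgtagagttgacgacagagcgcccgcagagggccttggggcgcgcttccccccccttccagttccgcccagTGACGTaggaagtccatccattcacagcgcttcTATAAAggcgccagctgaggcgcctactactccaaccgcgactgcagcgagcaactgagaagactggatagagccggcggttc
Jun, chr4:95052173-95052472, minus strand: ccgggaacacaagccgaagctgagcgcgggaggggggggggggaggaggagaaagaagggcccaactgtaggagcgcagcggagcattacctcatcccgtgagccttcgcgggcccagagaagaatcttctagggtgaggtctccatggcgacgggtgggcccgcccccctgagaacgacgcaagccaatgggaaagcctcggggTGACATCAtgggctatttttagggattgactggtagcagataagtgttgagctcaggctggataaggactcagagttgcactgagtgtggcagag
Atf3, chr1:191183284-191183583, minus strand: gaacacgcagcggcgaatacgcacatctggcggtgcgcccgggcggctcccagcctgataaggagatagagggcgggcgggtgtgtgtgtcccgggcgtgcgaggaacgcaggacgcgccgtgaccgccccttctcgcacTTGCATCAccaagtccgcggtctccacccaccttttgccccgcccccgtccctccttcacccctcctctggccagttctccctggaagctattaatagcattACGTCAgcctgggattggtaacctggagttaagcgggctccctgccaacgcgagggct
Maff, downstream of its outermost start, chr15:79347270-79347569, plus strand: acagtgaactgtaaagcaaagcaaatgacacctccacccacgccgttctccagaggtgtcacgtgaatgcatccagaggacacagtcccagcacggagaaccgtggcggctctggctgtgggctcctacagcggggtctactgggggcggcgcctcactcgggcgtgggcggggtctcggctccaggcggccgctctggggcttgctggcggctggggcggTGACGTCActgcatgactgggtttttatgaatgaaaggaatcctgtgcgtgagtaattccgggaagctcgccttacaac
Maff, farthest downstream start, chr15:79348152-79348451, plus strand: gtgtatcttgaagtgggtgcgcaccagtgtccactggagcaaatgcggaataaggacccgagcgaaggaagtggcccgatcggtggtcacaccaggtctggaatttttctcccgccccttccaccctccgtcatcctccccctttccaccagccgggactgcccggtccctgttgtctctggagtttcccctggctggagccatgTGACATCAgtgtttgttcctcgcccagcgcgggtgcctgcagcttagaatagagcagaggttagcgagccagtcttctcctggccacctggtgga
The Atf3 window lies at a start inside the deposited gene model, downstream of its outermost start. Motif matches are described as letters only. The AP-1 element of FOS-JUN dimers, TGANTCA, was in 0 of the 11 windows of members and in 7.81% of all 32851 windows. The cyclic AMP response element (CRE) core TGACGT was in Fos, with its first base 66 bases before the start, in Atf3 (8 bases before) and in the Maff window at 79347270, and in 7.51% of all windows. The CRE-like element TGACNTCA, which overlaps the CRE core where its middle base is G, was found as TGACATCA in Jun, 45 bases before the start, and in the Maff window at 79348152, and as TGACGTCA in the Maff window at 79347270. It was in 8.83% of all windows. The element TGATGCAA, bound by dimers of C/EBP and ATF proteins such as ATF4, was in Atf3, as its reverse complement TTGCATCA with its first base 110 bases before the start, and in 0.895% of all windows. The antioxidant response element core TGACNNNGC, bound by NRF2 with a small MAF, was in the remaining Maff window, at 79346371, and in Mafk, and in 12.4% of all windows. A TATAAA was in Fos and Junb and in 13.6% of all windows, and the CArG box of serum response factor was in 0 member windows and 1.63% of all windows. Sites more than 250 bases before a start lie outside these windows and were not searched, so a motif missing here may be present farther upstream. Fosb, Fosl2 and Jund had no match to these motifs in their windows, and the Jund window (chr8:70697489-70697788) lies wholly upstream of the deposited gene model.

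The comparison of wild-type acetaminophen with saline livers asks what the drug does within 6 h. Each of the 10 AP-1 members was higher after acetaminophen past the test, and for the 8 members with counts above 6 in every saline liver the ratio of mean FPKM ran from Jund at 3.94-fold to Fos at 639-fold. Fosb and Fosl1, at or near a count of 0 in saline livers, have no such ratio. The background is high, since 8.36% of the 11677 tested genes were called higher and 5.92% lower. With scaling by total count alone the balance turned, to 6.17% higher and 12.6% lower, and in limma on log2(FPKM + 0.5) to 5.96% higher and 12.8% lower. Genes entered the test when their FPKM averaged 0.5 or more over the 6 libraries, and Fos, Fosb and Fosl1 passed that filter only through their treated livers. The other 7 members were above it in saline livers too, and those 7 were also called. The comparison of Optn-/- acetaminophen with saline livers uses the same saline livers and joins drug and genotype. It called the same 10 members higher, against a background of 12.2% of tested genes higher and 8.05% lower (9.71% and 15% with total counts alone, 9.87% and 15.8% in limma). For all 10 members the treated livers lay above both saline livers, as did 32.7% of tested genes in wild type and 33.7% in knockout. The members' median log2 fold change was 5.40 in both comparisons (4.91 in wild type and 5.40 in knockout with Fosl1 put at its lower bound), against medians over all tested genes of 0.03 in wild type and -0.0018 in knockout. The members' medians include Fos, Fosb and Fosl1. Among the other 7 members the middle value was that of Junb, at 4.65 in wild type and 4.70 in knockout. Those 7 ran from 2.19 (Jund) to 7.80 (Atf3) in wild type and from 2.35 to 7.74 in knockout. The calls above used edgeR's quasi-likelihood test at a Benjamini-Hochberg adjusted p under 0.05 over all tested genes. In bulk liver, more cells of a type and more RNA per cell cannot be told apart.

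**Figure D1:**
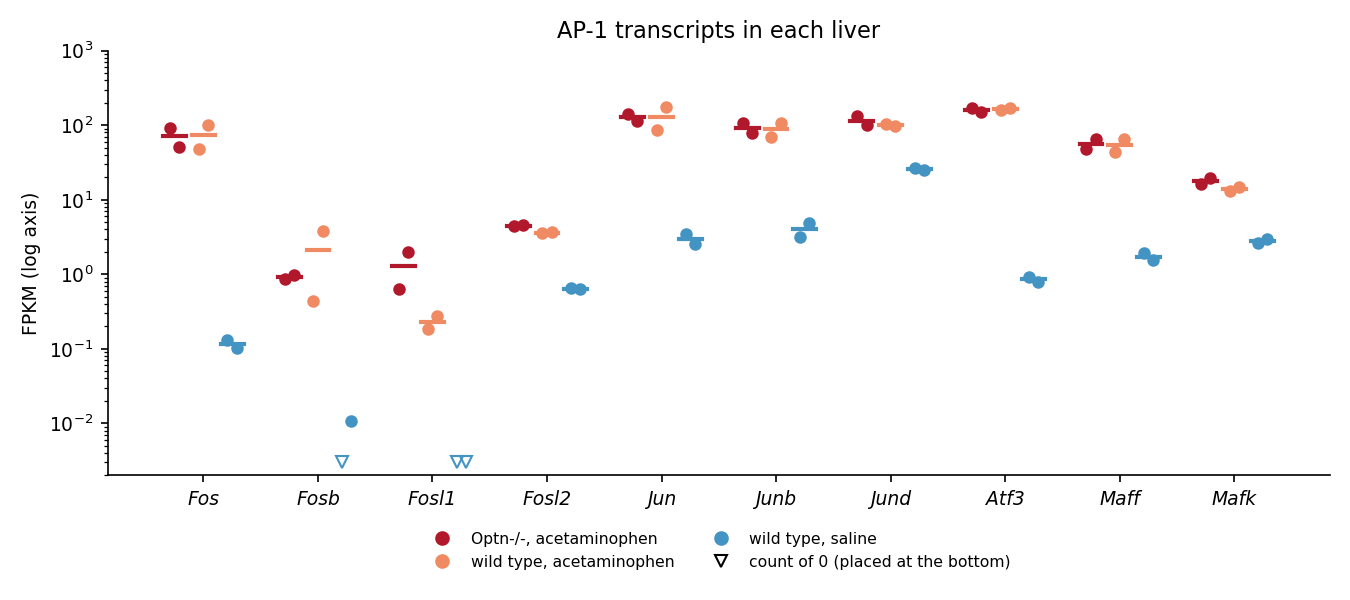
FPKM (log axis) of the 10 AP-1 transcripts in each of the 6 livers, with Optn-/- acetaminophen, wild-type acetaminophen and saline from left to right for each gene. Points are livers, short lines are means of 2 livers, and open triangles mark a count of 0. For each gene the 4 treated livers lie above both saline livers, while the 2 treated groups overlap for 7 of the 10 by FPKM.

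In the FOS family, Fos, whose protein carries a strong activation domain, had the highest level after acetaminophen. Fos (ENSMUSG00000021250, chromosome 12, 85473890 to 85477273, plus strand, GRCm38) had 91.4 and 51.0 FPKM in Optn-/- acetaminophen livers, 47.4 and 102.4 FPKM in wild-type acetaminophen livers, and 0.130 and 0.104 FPKM in saline livers. The treated livers did not overlap the saline livers, and the 2 treated groups overlapped fully. Behind these values stood 18061 and 8161 counts in Optn-/- livers, 7962 and 18562 in wild-type acetaminophen livers, and 20 and 22 in saline livers. The log2 fold change over saline was 9.37 ± 0.62 in Optn-/- livers and 9.46 ± 0.62 in wild-type livers (SE, edgeR adjusted p = 0.0013 and 0.00179).

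Fosl2, encoding FRA-2, was the FOS member with the highest FPKM in saline livers and the one with the smallest rise. Fosl2 (ENSMUSG00000029135, chromosome 5, 32135801 to 32157842, plus strand) had 4.41 and 4.56 FPKM in Optn-/- livers, 3.60 and 3.66 FPKM in wild-type acetaminophen livers, and 0.650 and 0.632 FPKM in saline livers. Replicates of a group differed by at most 1.03 times, the closest of any member. Its log2 fold change was 2.98 ± 0.12 in Optn-/- and 2.71 ± 0.12 in wild-type livers (edgeR adjusted p = 0.000545 and 0.000896). Because Fos was so low at baseline, Fosl2 made up 83.3% and 84.6% of the FOS family's summed FPKM in saline replicates 3 and 6, whereas in treated livers Fos made up 87.2% to 93.9% of it.

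Fosb and Fosl1 (FRA-1) stayed at low levels throughout. Fosb (ENSMUSG00000003545, chromosome 7, 19302696 to 19310051, minus strand) had 0.876 and 0.984 FPKM in Optn-/- livers, 0.433 and 3.78 FPKM in wild-type acetaminophen livers, and counts of 0 and 6 in saline livers. The wild-type acetaminophen value came mainly from replicate 4, the library with neuron markers, and the part of that trace in Fosb was not tested. Its log2 fold change over saline was 7.31 ± 1.42 in Optn-/- and 8.50 ± 1.45 in wild-type livers (edgeR adjusted p = 0.0195 and 0.0182), with a size that depends on those few saline counts. The wild-type call ended without saline replicate 3 (edgeR adjusted p = 0.0853, log2 fold change 7.67) or saline replicate 6 (0.0638, log2 fold change 12.93), and the knockout call ended without any one of Optn-/- replicates 4 and 5 and saline replicates 3 and 6 (0.0638, 0.0823, 0.0909 and 0.0644, with log2 fold changes of 7.24 to 7.37 without a knockout liver, 6.49 without saline replicate 3 and 11.75 without saline replicate 6).

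Fosl1 (ENSMUSG00000024912, chromosome 19, 5447547 to 5455946, plus strand) had 0.632 and 1.98 FPKM in Optn-/- livers, 0.182 and 0.276 FPKM in wild-type acetaminophen livers, and a count of 0 in both saline livers. The counts were 109 and 274 in Optn-/- livers and 27 and 44 in wild-type acetaminophen livers. Against a floor of 3 counts in each saline library, Fosl1 was at least 64.2-fold higher in Optn-/- livers and at least 11.4-fold higher in wild-type acetaminophen livers (edgeR adjusted p = 0.00755 and 0.0209). The wild-type call ended on leaving out any one of its 4 libraries, with edgeR adjusted p of 0.0598 and 0.062 without wild-type acetaminophen replicates 1 and 4 and 0.0671 and 0.064 without saline replicates 3 and 6. Its fitted log2 value was 8.50, 7.94, 8.25 and 8.16 in these 4 fits and 8.23 with all libraries. Fosl1 overlaps Ccdc85b on the other strand, and whether strand was used in counting is not given in the sources used here. Ccdc85b had 1051 and 1217 counts in Optn-/- livers, 543 and 767 in wild-type acetaminophen livers, and 451 and 791 in the saline livers, in which Fosl1 had 0. Scaled to library size, Ccdc85b was at 13.6 and 19.5 CPM in Optn-/- livers, 8.23 and 10.8 CPM in wild-type acetaminophen livers and 7.63 and 10.4 CPM in saline livers, so the treated livers had the same order for both genes. The part of Ccdc85b reads in the Fosl1 counts was not tested.

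In the JUN family, Jun and Junb rose strongly and Jund, already abundant, rose least. Jun encodes c-JUN, the main substrate of JNK, and its promoter is a known target of its own dimers with ATF2. Jun (ENSMUSG00000052684, chromosome 4, 95049034 to 95052222, minus strand) had 140.9 and 115.2 FPKM in Optn-/- livers, 86.1 and 174.3 FPKM in wild-type acetaminophen livers, and 3.48 and 2.52 FPKM in saline livers. The wild-type acetaminophen values enclosed both knockout values. The log2 fold change was 5.60 ± 0.42 in Optn-/- and 5.64 ± 0.42 in wild-type livers (edgeR adjusted p = 0.00169 and 0.00241). Junos, an antisense gene that overlaps Jun, had at most 25 counts in a library.

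Junb, which encodes a JUN protein that activates many AP-1 sites more weakly than c-JUN, followed Jun. Junb (ENSMUSG00000052837, chromosome 8, 84974484 to 84978718, minus strand) had 106.6 and 77.7 FPKM in Optn-/- livers, 69.0 and 106.9 FPKM in wild-type acetaminophen livers, and 3.17 and 4.91 FPKM in saline livers. Its log2 fold change was 4.70 ± 0.35 in Optn-/- and 4.65 ± 0.35 in wild-type livers (edgeR adjusted p = 0.00169 and 0.00241). It overlaps the peroxiredoxin gene Prdx2 on the other strand, which had 5889 and 4401 counts in Optn-/- livers, 5203 and 5253 in wild-type acetaminophen livers and 5794 and 7173 in saline livers. Junb itself had 12159 to 20602 counts in Optn-/- livers, 11346 to 18970 in wild-type acetaminophen livers and 472 to 936 in saline livers.

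Jund encodes the JUN protein that is made in many resting cells and is often described as a brake on proliferation. Jund (ENSMUSG00000071076, chromosome 8, 70698949 to 70700616, plus strand) had 131.5 and 99.6 FPKM in Optn-/- livers, 104.6 and 98.0 FPKM in wild-type acetaminophen livers, and 26.7 and 24.7 FPKM in saline livers. In saline livers it stood above every other member, with Junb, the next in order, at 3.17 and 4.91 FPKM. Its log2 fold change was 2.35 ± 0.19 in Optn-/- and 2.19 ± 0.19 in wild-type livers (edgeR adjusted p = 0.00188 and 0.00331).

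Atf3, which encodes a stress-induced repressor or activator depending on its partner, reached the highest mean level of the members after acetaminophen. Atf3 (ENSMUSG00000026628, chromosome 1, 191170296 to 191218039, minus strand) had 171.5 and 152.1 FPKM in Optn-/- livers, 160.4 and 171.3 FPKM in wild-type acetaminophen livers, and 0.925 and 0.793 FPKM in saline livers. The treated livers lay within 1.13 times of each other. The log2 fold change was 7.74 ± 0.19 in Optn-/- and 7.80 ± 0.19 in wild-type livers (edgeR adjusted p = 0.000166 and 0.000192).

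The small MAF genes differed in how far they rose. Maff (ENSMUSG00000042622, chromosome 15, 79346621 to 79359076, plus strand), the more stress-inducible of the pair, had 47.9 and 64.5 FPKM in Optn-/- livers, 43.3 and 65.0 FPKM in wild-type acetaminophen livers, and 1.92 and 1.54 FPKM in saline livers. Its log2 fold change was 5.20 ± 0.29 in Optn-/- and 5.17 ± 0.29 in wild-type livers (edgeR adjusted p = 0.000878 and 0.00144). Mafk (ENSMUSG00000018143, chromosome 5, 139791513 to 139802653, plus strand) had 16.0 and 19.6 FPKM in Optn-/- livers, 13.0 and 15.1 FPKM in wild-type acetaminophen livers, and 2.59 and 2.93 FPKM in saline livers. Its log2 fold change was 2.87 ± 0.15 in Optn-/- and 2.55 ± 0.15 in wild-type livers (edgeR adjusted p = 0.000878 and 0.00144). Mafk was thus above Maff in both saline livers and below it in all 4 treated livers, and its share of the small MAF sum was 18.8% to 25.1% in treated livers and 57.5% and 65.6% in saline livers. Mafk overlaps Tmem184a on the other strand, which had 441 and 391 counts in Optn-/- livers, 481 and 557 in wild-type acetaminophen livers and 780 and 1125 in saline livers.

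**Figure D2:**
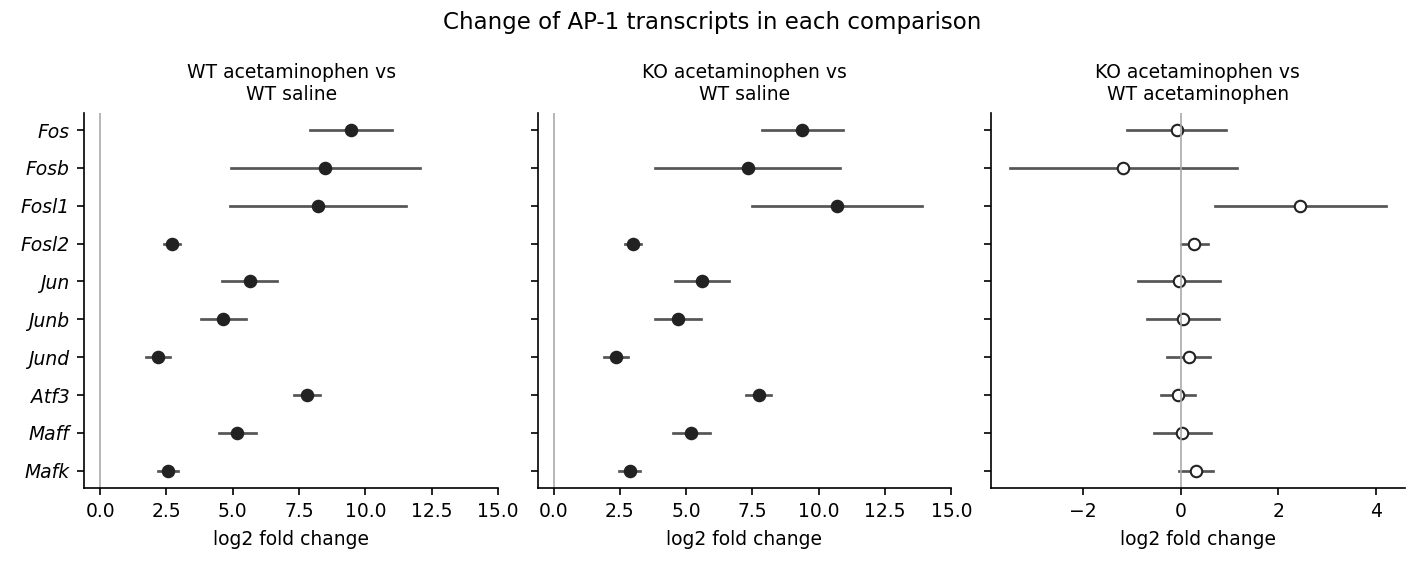
Log2 fold change of each AP-1 transcript (points) with its 95% interval (lines) from the edgeR fit, for wild-type acetaminophen over saline (left), Optn-/- acetaminophen over saline (middle) and Optn-/- over wild type after acetaminophen (right, on its own scale). Filled points passed an adjusted p of 0.05. The fitted values of Fosl1, at 0 in both saline livers, and Fosb rest on few saline counts in the left and middle panels, and in the right panel no member passed.

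The make-up of the family's RNA differed between treated and saline livers. The summed FPKM of the 10 members was 711.8 and 587.3 in Optn-/- livers, 528.0 and 740.7 in wild-type acetaminophen livers and 39.6 and 38.2 in saline livers. This was 16.7-fold higher in Optn-/- livers and 16.3-fold higher in wild-type acetaminophen livers, by means. In saline livers Jund alone held 67.5% and 64.8% of the sum, and the order by mean FPKM was Jund, Junb, Jun, Mafk, Maff, Atf3, Fosl2, Fos, Fosb and Fosl1. Junb, Jun and Mafk could not be ordered beyond the spread between the saline livers, since Jun had 3.48 and Junb 3.17 FPKM in replicate 3, and Jun 2.52 and Mafk 2.93 in replicate 6. In both treated groups the order opened with Atf3, Jun, Jund, Junb, Fos, Maff, Mafk and Fosl2. Neighbours from Jun to Maff overlapped within the wild-type acetaminophen group, and Atf3 lay above Jun in 3 of the 4 treated livers, the exception being wild-type replicate 4 with 171.3 FPKM of Atf3 and 174.3 of Jun. Jund held 13.2% to 19.8% of the sum in treated livers and Atf3 23.1% to 30.4%, against 2.34% and 2.08% for Atf3 in saline livers. The ratio of summed JUN to summed FOS transcripts was 3.89 and 5.0 in Optn-/- livers, 5.04 and 3.44 in wild-type acetaminophen livers and 42.7 and 43.1 in saline livers. These are levels of RNA, and protein was not measured.

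**Figure D3:**
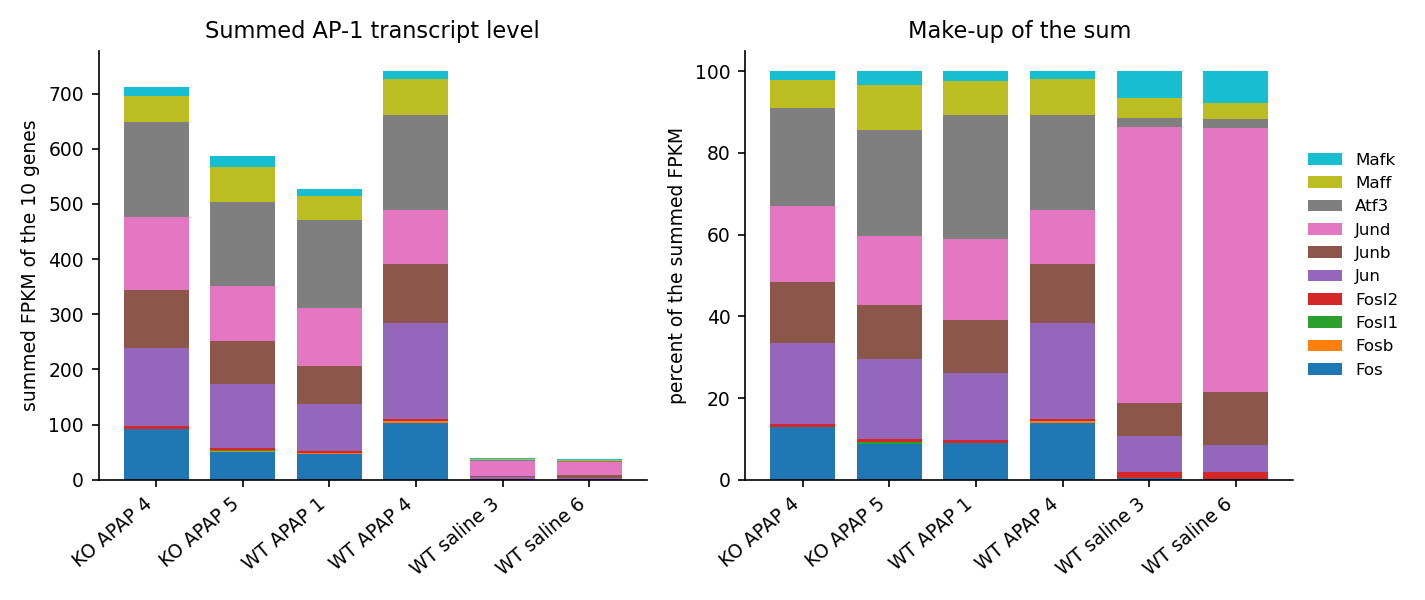
Left, summed FPKM of the 10 AP-1 transcripts in each liver, stacked by gene; right, the same as a percent of each liver's sum. The treated livers sum to 528.0 to 740.7 FPKM and the saline livers to 39.6 and 38.2, of which Jund holds 67.5% and 64.8%.

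The comparison of Optn-/- with wild-type livers, both after acetaminophen, asks what loss of Optn changes in the injured liver. No AP-1 member passed the test: 0 of 10 in edgeR, DESeq2 and limma, with 1 of 10 (Fosl1) at an unadjusted edgeR p under 0.05. The background was low as well, with 0.103% of tested genes called in edgeR, 2.42% in DESeq2 and 8.77% at an unadjusted edgeR p under 0.05. The knockout livers did not overlap the wild-type livers for 3 members, Fosl1, Fosl2 and Mafk, all higher, whereas 39.7% of tested genes did not overlap in one direction or the other and 20.8% were higher without overlap. Fosl1 had the largest difference, with a fitted log2 value of 2.45 ± 0.68 (adjusted p = 0.509 in edgeR, 95% interval 0.69 to 4.20 before adjustment). Its replicates in Optn-/- livers were themselves 3.13 times apart. The Fosb difference, -1.18 ± 0.95 (edgeR adjusted p = 0.773), turned to 1.03 without wild-type replicate 4. For Fosl2 the log2 difference was 0.28 ± 0.11 (adjusted p = 0.569 in edgeR) and for Mafk it was 0.31 ± 0.14 (0.614).

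Both Optn-/- libraries lie in one set by tissue traces and both wild-type acetaminophen libraries in the other, so the intervals of this comparison hold genotype and library set together. Without a term for the set, the log2 fold change of Atf3 was -0.06 ± 0.14, with a 95% interval of -0.41 to 0.29 (edgeR adjusted p = 0.931). That of Jund was 0.16 ± 0.18 (interval -0.28 to 0.60) and that of Maff 0.03 ± 0.24 (-0.56 to 0.61). The intervals were wider for Jun (-0.88 to 0.80), Junb (-0.69 to 0.78) and Fos (-1.10 to 0.93), and widest for Fosb (-3.51 to 1.14). With the set as a term, which leaves the 1 pair of saline livers to tell set from genotype, the intervals became -0.52 to 0.88 for Atf3, -0.57 to 1.18 for Jund, -0.70 to 1.47 for Maff, -1.07 to 1.98 for Jun, -1.77 to 0.66 for Junb and -2.46 to 2.79 for Fos. Those of Fosl2 and Mafk were -0.24 to 0.93 and -0.53 to 0.86. For Fosb, with a standard error of 4.60, and Fosl1 that fit set no useful bound. A change by 2 times, a log2 value of 1 in either direction, lay outside both intervals for Atf3, Fosl2 and Mafk, and inside at least 1 of them for the other members.

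Among the 4 treated livers Fos, Jun and Junb shared one order. Each was highest in wild-type replicate 4, followed by Optn-/- replicate 4, Optn-/- replicate 5 and wild-type replicate 1. The highest and lowest treated liver were 2.16 times apart for Fos, 2.03 for Jun, 1.55 for Junb and 8.72 for Fosb, against 1.34 for Jund and 1.13 for Atf3. Wild-type replicate 4 was the highest treated liver for 5 of the 10 members and wild-type replicate 1 the lowest for 8. The library of replicate 4 held the 139.4 CPM of neuron markers and 87.9 CPM of glia markers, against 11.1 to 16.9 CPM of glia markers in the other treated livers, and their part in these levels was not tested. Without it, Fos, Jun and Junb still passed in wild type against saline.

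**Figure D4:**
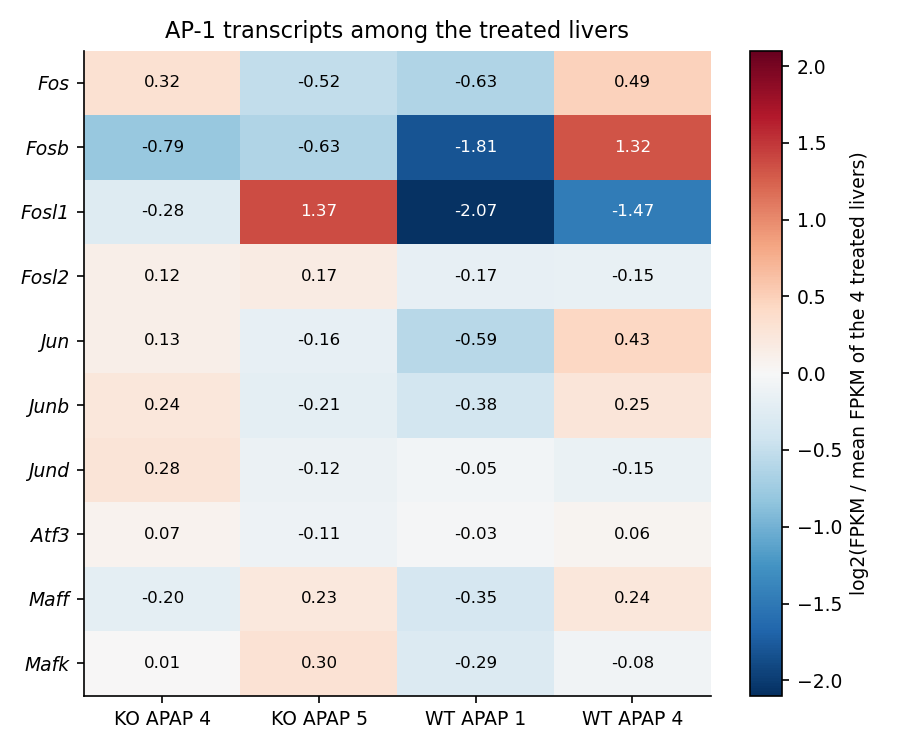
Log2 ratio of each AP-1 transcript's FPKM to its mean over the 4 treated livers, for the Optn-/- (KO APAP) and wild-type (WT APAP) acetaminophen livers. Fosb is highest in wild-type replicate 4 and Fosl1 in Optn-/- replicate 5, while Atf3 stays within 0.11 of its mean.

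Ratios within the sets of libraries that share tissue traces reused the same livers, with a single saline liver in each set. Every treated liver lay above both saline livers for all 10 members. The direction of these ratios was thus fixed in advance, and only their size is given, for some of the members. Against saline replicate 6 alone, Optn-/- livers had 686 times the FPKM of Fos, 204 times that of Atf3, 50.8 times that of Jun, 36.6 times that of Maff and 4.67 times that of Jund. Against saline replicate 3 alone, wild-type acetaminophen livers had 574 times the FPKM of Fos, 179 times that of Atf3, 37.4 times that of Jun, 28.2 times that of Maff and 3.79 times that of Jund. With the library set as a term in the fit, 8 of 10 members passed in wild type and 9 of 10 in the knockout comparison with saline. In that fit 4.9% of all tested genes were called higher in wild type and 5.74% in knockout.

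Summed markers of several blood-borne cell types were higher in treated than in saline livers. The 8 neutrophil markers summed to 156.8 and 204.7 CPM in Optn-/- livers, 150.8 and 72.6 CPM in wild-type acetaminophen livers and 2.25 and 5.95 CPM in saline livers, where 4 and 2 of the 8 had a count of 0. Of the 7 monocyte markers Fn1, which hepatocytes also make, had 1599 and 1405 CPM in Optn-/- livers, 1355 and 1561 CPM in wild-type acetaminophen livers and 1153 and 1287 CPM in saline livers. The other 6, each with counts in every library, summed to 229 and 179 CPM in Optn-/- livers, 120 and 72.6 CPM in wild-type acetaminophen livers and 5.17 and 11.8 CPM in saline livers. Cd14 was most of that sum in treated livers, with 185 and 133 CPM in Optn-/- and 96.5 and 51.4 CPM in wild-type acetaminophen livers. Each of the rest was also higher in every treated liver than in both saline livers. The 7 Kupffer cell markers summed to 466 and 311 CPM in Optn-/- livers, 289 and 247 CPM in wild-type acetaminophen livers and 115.5 and 314.4 CPM in saline livers, so these groups overlapped. Marco alone of the 7 was higher in every treated liver, at 34.0 to 95.9 CPM against 2.99 and 7.15 CPM in saline livers. Red blood cell markers summed to 8458 and 8926 CPM in Optn-/- livers, 9381 and 3961 CPM in wild-type acetaminophen livers and 699.6 and 1109 CPM in saline livers. Platelet markers summed to 21.6 and 24.0 CPM in Optn-/- livers, 16.7 and 10.6 CPM in wild-type acetaminophen livers and 3.70 and 3.08 CPM in saline livers. T and NK cell markers summed to 9.56 and 11.1 CPM in Optn-/- livers, 9.32 and 5.84 CPM in wild-type acetaminophen livers and 2.37 and 2.81 CPM in saline livers. Of these, Gzma, Gzmb and Klrb1c were higher in every treated liver, whereas Cd3e, Cd3g, Cd8a and Nkg7 overlapped between treated and saline livers. Bile duct markers summed to 103 and 137 CPM in Optn-/- livers, 94.5 and 59.2 CPM in wild-type acetaminophen livers and 31.5 and 40.02 CPM in saline livers. Spp1 and Sox9 made up most of that sum in every library. Krt19 was lower in wild-type acetaminophen livers (0.73 and 0.96 CPM) than in saline livers (1.83 and 5.33 CPM), which the Optn-/- livers overlapped. Stellate cell markers summed to 242 and 288 CPM in Optn-/- livers, 182 and 141 CPM in wild-type acetaminophen livers and 109 and 136 CPM in saline livers. Most of this was Dcn and Reln. Dcn was higher in every treated liver than in both saline livers. Lrat was lower in treated livers, at 1.63 to 2.57 CPM, than in saline livers (8.54 and 8.24 CPM). Reln, Col1a1, Acta2, Des and Pdgfrb overlapped. Endothelial markers, summed at 92.5 to 155 CPM, overlapped between treated and saline livers. Within that list Lyve1 was higher in treated livers, at 11.4 to 29.3 CPM, than in saline livers (1.98 and 5.46 CPM). Kdr was lower, at 8.40 to 13.2 CPM against 17.0 and 20.6 CPM, and the rest overlapped. Hepatocyte markers summed to 103560 to 144174 CPM across the libraries. The part of any of these cells in the rise of AP-1 transcripts was not tested.

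Genes with the profile most like 4 of the members were sought among 3846 genes whose mean FPKM was 5 or more. The AP-1 members themselves, predicted genes and pseudogenes were left out of the search. Likeness was measured by the root-mean-square difference of centred log2(CPM + 1) over the 6 libraries. Fos and Atf3 shared the same 3 nearest genes, in the same order: Egr1, an immediate early zinc finger factor, Hmox1, haem oxygenase 1, and Igfbp1, an insulin-like growth factor binding protein. Their differences were 0.36, 0.66 and 0.74 log2 units from Fos and 0.23, 0.48 and 0.53 from Atf3. Jun was nearest to Ifrd1 (0.49), Gdf15 (0.51) and Btg2 (0.58), and Maff to Ifrd1 (0.30), Klf6 (0.33) and Gdf15 (0.35). The libraries fall into treated and saline, so likeness here mainly reflects the size of the drug difference.

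Related gene lists, chosen with earlier results of these data known, are given by their counts and medians beside a median of 0.03 over all tested genes in wild type. Of 16 bZIP partners, 11 were tested. Of these, 4 rose in wild type, and their median log2 fold change was 0.56. They were Bach1, a haem-sensing repressor that pairs with small MAF proteins (2.25 ± 0.18), Batf (2.44), Jdp2, a repressor of JUN (1.97 ± 0.30), and Atf4, the effector of the integrated stress response (1.92 ± 0.35), with edgeR adjusted p of 0.00287, 0.0432, 0.014 and 0.0215. Bach1 had 11.6 ± 2.12 FPKM in wild-type acetaminophen and 2.81 ± 0.19 FPKM in saline livers (SD, n = 2 each). Batf entered the test only through treated livers. The count of 4 became 1 without saline replicate 3 and 2 without saline replicate 6. Over all tested genes the share called higher was then 3.08% and 4.84%, against 8.36% with all libraries, and the counts of the lists below without these libraries stand beside the same shares. In wild type it was 5.05% and 5.51% without wild-type acetaminophen replicates 1 and 4. In the knockout comparison with saline the share was 7.54% and 4.57% without Optn-/- replicates 4 and 5 and 5.82% and 7.84% without saline replicates 3 and 6, against 12.2% with all libraries. In Optn-/- against saline livers the same 4 genes rose, and 2 did without Optn-/- replicate 5, saline replicate 3 or saline replicate 6.

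Of 20 MAP kinases and their upstream kinases, 17 were tested, with 5 risers and 1 faller in wild type and a median log2 fold change of 0.16. Map3k8 (TPL2), which feeds the ERK pathway, rose by 3.55 ± 0.37, Map3k14 (NIK), of non-canonical NF-kB signalling, by 1.37 ± 0.18 and Map3k5 (ASK1), which feeds JNK and p38, by 1.14 ± 0.16 (edgeR adjusted p = 0.00504, 0.00971 and 0.0118). Map3k8 and Map3k14 averaged under 0.5 FPKM in saline livers and so entered the test only through treated livers. The 5 risers became 1 without saline replicate 3 and 3 without saline replicate 6 or either wild-type acetaminophen replicate, and the faller, Map2k3, a kinase of p38, was lost without either wild-type acetaminophen replicate or saline replicate 3. In Optn-/- against saline livers 5 rose and 2 fell, and leaving out any 1 of the 6 libraries left 3 risers and at most 1 faller, apart from Optn-/- replicate 4 and saline replicate 3, without which 0 fell.

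Of 12 factors that act on the Fos and Jun promoters, 10 were tested and 5 rose in wild type, with a median log2 fold change of 0.74. Srf, serum response factor, rose by 1.51 ± 0.19, its partner Elk1 by 1.50 ± 0.19 and Stat3 by 1.25 ± 0.19 (edgeR adjusted p = 0.00839, 0.00918 and 0.0139). This count was 0 without saline replicate 3 and 3 without saline replicate 6. In Optn-/- against saline livers 6 rose (3 without Optn-/- replicate 5), among them the SRF co-activators Mrtfb (2.60 ± 0.28) and Mrtfa (1.44 ± 0.16), with an edgeR adjusted p of 0.00387 and 0.0043.

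Of 10 factors that destabilise FOS and JUN transcripts or proteins or stabilise their mRNA, 3 rose in wild type, and the median log2 fold change was 0.11. All 3 belong to the Zfp36 family, whose proteins bind AU-rich elements and speed decay of mRNA: Zfp36 (3.16 ± 0.18), Zfp36l1 (1.51 ± 0.24) and Zfp36l2 (1.31 ± 0.25), with edgeR adjusted p of 0.00144, 0.0151 and 0.0246. Zfp36 had 142 ± 26.0 FPKM in wild-type acetaminophen and 18.4 ± 2.00 FPKM in saline livers (SD, n = 2 each). In Optn-/- against saline livers the same 3 rose and the ubiquitin ligase Itch fell. Without Optn-/- replicate 5, 1 of the 3 passed, and Itch did not pass without wild-type acetaminophen replicate 4, Optn-/- replicate 4 or either saline replicate.

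Of 20 genes with described AP-1 sites, 12 were tested, with 4 risers and 1 faller in wild type and a median log2 fold change of 1.87. Timp1, an inhibitor of metalloproteinases, had 85 and 50 counts in wild-type acetaminophen livers and 0 in both saline livers. Its mean CPM was at least 22.1-fold higher by the floor of 3 counts (adjusted p = 0.00911 in edgeR). Sprr1a, of the cornified envelope, rose by 8.14 ± 1.23, with 0 and 4 counts in saline livers (edgeR adjusted p = 0.0138). Of the 4 risers in wild type 3 entered the test only through treated livers, Timp1 and Sprr1a included, as did 6 of the 8 risers in knockout against saline. Without saline replicate 3 the count was 2, and the faller, the cyclin gene Ccnd1 (-1.05), was lost without any 1 of these 4 libraries. In Optn-/- against saline livers 8 rose and 1 fell, with 4 risers without Optn-/- replicate 4 and 3 without Optn-/- replicate 5.

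Of 10 targets of NRF2 with small MAF, 9 were tested and 3 rose in wild type, with a median log2 fold change of 1.31. Hmox1 rose by 6.81 ± 0.55, Txnrd1, thioredoxin reductase, by 1.31 ± 0.17 and Gclc, of glutathione synthesis, by 1.67 ± 0.39 (edgeR adjusted p = 0.00284, 0.0096 and 0.0414), and 1 of them passed without saline replicate 6. In Optn-/- against saline livers 6 rose, with 3 without Optn-/- replicate 4 and 2 without either saline replicate. Between Optn-/- and wild-type livers after acetaminophen, 0 genes of these 6 lists passed in edgeR, DESeq2 or limma. The smallest p in each list belonged to Mrtfb (log2 fold change 0.94 ± 0.26, edgeR adjusted p = 0.489), Ccnd1 (-0.71 ± 0.23, 0.509), Nfe2l2, which encodes NRF2 (0.40 ± 0.14, 0.522), Map3k14 (0.50 ± 0.18, 0.522), Nqo1 (-0.82 ± 0.32, 0.555) and Hnrnpd (0.22 ± 0.21, 0.802). At an unadjusted edgeR p under 0.05 there were 2, 1, 1, 3, 1 and 0 genes in their lists, of 10, 12, 11, 17, 9 and 10 tested. Over all tested genes that share was 8.77%.

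**Figure D5:**
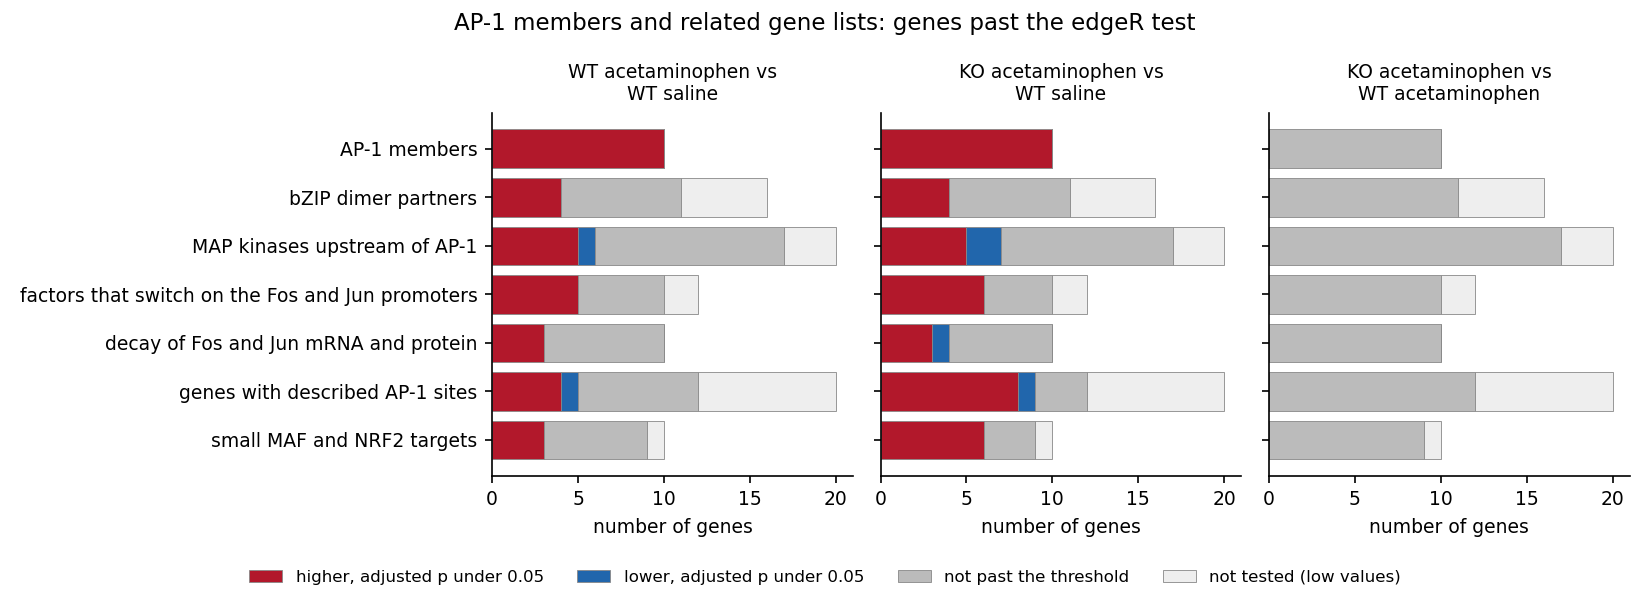
Number of genes in the AP-1 family and in 6 related lists that passed the edgeR test as higher or lower, did not pass, or were not tested for low values, in each comparison. In both comparisons with saline 10 AP-1 members were called higher, and between Optn-/- and wild-type acetaminophen livers 0 genes of any list passed.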

How the data were processed

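Poly(A) RNA of 6 livers was sequenced with paired ends. The table deposited by the authors holds raw read counts per gene and, beside them, FPKM, in which a count of 0 is listed at 0.0001. The submitters' processing notes name Bowtie 0.12.2 and mm8; neither the counter nor any use of strand is recorded there. Coordinates in the file are those of GRCm38: 94.3% of 55144 shared genes, all 10 members included, have the coordinates of GENCODE M21.

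Counts of all 6 libraries were fitted with edgeR 4.0.16 (TMM scaling, 1 mean per group, quasi-likelihood test) in R 4.3.3, on the 11677 genes whose FPKM averaged 0.5 or more, with Benjamini-Hochberg adjustment over them and a threshold of 0.05. Standard errors are the log2 fold change divided by the square root of its F statistic. The script was tested on simulated data. FPKM served for levels and CPM for marker sums. Alternatives were DESeq2 1.42.0, limma 3.58.1 on log2(FPKM + pseudocount) of 0.1, 0.5 and 1, other scalings and filters, the compared groups alone, each library left out, and the library set as a term. With 2 livers against 2, an exact permutation test of a single gene cannot go below a two-sided p of 0.333. The labels do not say how replicates were obtained beyond separate samples, so the p-values speak only of the spread among these 6 samples, which may be technical. Floors of 3 counts cover counting error only.

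All 10 members were named. From each related list the up to 3 genes with the smallest p past the threshold were named, or the smallest p where none passed; Batf, Map2k3, Itch and Ccnd1 were named after their values were seen. A gene that this rule would name is not reported here. The members and lists were chosen with earlier results of these data known.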

Additional observations from a re-analysis of the deposited data

How the results depend on the processing

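The count of AP-1 members called higher over saline was 8 to 10 in wild type and 9 to 10 in the knockout comparison when 1 library was left out, and 7 to 10 under the other alternatives in both, where 7 is the number tested with FPKM averaging 5 or more. Between the genotypes it was 0 throughout. Fos, Fosl2, Jun, Junb, Jund, Atf3, Maff and Mafk passed over saline under each alternative that tested them. Fosl1 in wild type missed the threshold in limma with each pseudocount and in the fit with a library set term (edgeR adjusted p = 0.0626). Fosb missed it in limma with pseudocounts of 0.5 and 1, and, with a library set term, in wild type (edgeR adjusted p = 0.0606) and knockout (0.0891). The cause was not tested. Over all genes, 1667 were called in wild type against saline, with 494 without saline replicate 3, 819 with FPKM averaging 5 or more, 812 with the library set and 3102 in DESeq2. Between the genotypes 12 were called, with 1 without Optn-/- replicate 4, 3 with the library set, 37 with no filter and 283 in DESeq2. In knockout against saline 2366 were called, with 750 without Optn-/- replicate 5, 960 with the library set and 3619 in DESeq2. Scaling by total count alone moved the median of all genes to -0.19 in both comparisons with saline. No paired analysis was possible because the groups compared share at most 1 replicate number. At 0 to 6 saline counts, the size of the Fosb and Fosl1 differences is limited by depth.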
